A study of Mus musculus with 76 samples.

Results

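The surface genes by which mouse blood stem and progenitor cells are sorted, Cd34, Cd48, Slamf1 (CD150), Ly6a (Sca-1), Procr (EPCR), Cd93 (AA4.1), Spn (CD43) and Adgrg1 (listed in the table under its older symbol Gpr56), were examined in 76 single cells. They are 8 of the 15192 genes in the table and were chosen by name, as genes of known gates, with earlier results of these data known. All 8 were listed. The cells, called iHPCs in the labels, are mouse progenitors that arose in culture from pluripotent stem cells with inducible Runx1, Hoxa9 and Hoxa10, and that engraft C57BL/6 recipients. They form 1 group. No control cells, normal marrow cells, culture, animal or clone were named, so all cells together are 1 sample, and no p-value could be made. The cells had been sorted, and the surface gate of that sort is not given in the sources used here; a gate on any of these proteins could set the shares below. Polyadenylated RNA of each cell was amplified and sequenced, and the deposited values are TPM, a share of transcripts scaled for gene length. Levels of different genes are set side by side on that scale. Whether amplification or the assignment of reads differed between genes was not tested. Detection means 1 TPM or more in a cell, and counts at 10 TPM are given beside it.

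Mouse blood stem cells lie in the bone marrow among cells that lack markers of mature lineages and carry both Kit, the stem cell factor receptor, and Sca-1, the combination called LSK. Within LSK, CD150 without CD48 marks stem cells, while CD48 appears on multipotent progenitors; Flt3, a growth factor receptor, marks those biased to lymphoid fates, and adult mouse stem cells at rest lack CD34. LSK cells with Flt3 and CD48 but no CD150 are called MPP4, those with CD48 alone MPP3 and those with CD48 and CD150 but no Flt3 MPP2. EPCR marks stem cells in marrow and fetal liver, AA4.1 stem and progenitor cells of the fetal liver, and CD43 and Gpr56 cells of the emerging blood lineage in the embryo. These gates are defined on protein; the values here are RNA, and presence of a transcript is not a position in a gate.

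Between 2465 and 5992 genes were detected per cell (median 4182.5). Every column summed to 1000000 TPM, so the depth of each library is unknown. Genes used by every cell were not always found: Tbp reached 1 TPM in 36 cells and Polr2a in 22, so a value of 0 below is a gene listed at 0 and not a shown absence. The haematopoietic markers Coro1a and Arhgdib were in 76 of 76 cells, Lsp1 in 76 and Ptprc (CD45) in 66. Other cell types that carry some of these surface genes were checked by their defining markers. Of the endothelial list 12 of 15 genes were listed, with a summed level of 2.85 to 2159 TPM per cell; Kdr, Tek, Vwf and Cldn5 were in 0 cells, Egfl7 in 73 and Eng in 37. Of the mast cell list, with 9 of 9 genes listed, Fcer1a, Ms4a2 and Mrgprb1 were in 0 cells and Cpa3 in 75 (summed level 1.77 to 23327 TPM). Tpsb2 was in 25 cells and Cma1 in 12, neither at 10 TPM in any cell, and Hdc was in 6. Of the T cell list, with 9 of 10 listed, Cd3e and Bcl11b were in 0 cells, Cd3d in 7 and Cd3g in 9 (7 at 10 TPM). Lat was in 65, Lck in 44, Tcf7 in 37 and Gata3 in 27 (summed level of the list 1.16 to 5857 TPM). Among 9 listed genes of the mature-lineage gate, no cell had more than 2. Cd3e and Ncr1 were among those in 0 cells, Itgam was in 11 and Cd3g in 9.

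Cd34, Cd48 and Slamf1 all lie on chromosome 1 of the mouse build GRCm38. Cd34, which encodes a sialomucin that presents ligands to selectins, spans chr1:194938819-194961279 on the plus strand. Cd48, the GPI-anchored ligand of the receptor 2B4 (Cd244a), spans chr1:171682009-171705258, and Slamf1, a self-ligand receptor of the same family, starts 61868 bases after the end of Cd48 at chr1:171767127-171801184, both on the plus strand. The start-site windows of these 3 genes are printed because Cd34 and Cd48 are the members found in every cell, and because Slamf1 is the neighbour of Cd48 on the same strand and was at 0 in 74 cells. Each window is RefSeq sequence of GRCm38.p6 from 250 bases before to 50 after the annotated start, 5′ to 3′ on the plus strand, at chr1:194938571-194938870 for Cd34, chr1:171681742-171682041 for Cd48 and chr1:171766882-171767181 for Slamf1. Capitals mark exact matches, on either strand, to TGTGGT (RUNX), CGGAAG (ETS), GATAA (GATA) or CAGCTG (E-box).
Cd34: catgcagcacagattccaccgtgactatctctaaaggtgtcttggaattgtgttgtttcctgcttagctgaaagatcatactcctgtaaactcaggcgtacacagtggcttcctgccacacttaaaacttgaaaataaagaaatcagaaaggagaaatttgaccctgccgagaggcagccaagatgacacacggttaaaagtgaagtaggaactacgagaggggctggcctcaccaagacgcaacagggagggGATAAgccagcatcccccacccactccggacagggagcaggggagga
Cd48: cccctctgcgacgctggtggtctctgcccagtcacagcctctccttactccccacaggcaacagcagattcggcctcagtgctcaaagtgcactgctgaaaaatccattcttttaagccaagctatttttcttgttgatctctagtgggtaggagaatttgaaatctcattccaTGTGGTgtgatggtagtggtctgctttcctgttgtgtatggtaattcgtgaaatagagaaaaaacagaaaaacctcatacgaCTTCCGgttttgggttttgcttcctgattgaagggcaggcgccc
Slamf1: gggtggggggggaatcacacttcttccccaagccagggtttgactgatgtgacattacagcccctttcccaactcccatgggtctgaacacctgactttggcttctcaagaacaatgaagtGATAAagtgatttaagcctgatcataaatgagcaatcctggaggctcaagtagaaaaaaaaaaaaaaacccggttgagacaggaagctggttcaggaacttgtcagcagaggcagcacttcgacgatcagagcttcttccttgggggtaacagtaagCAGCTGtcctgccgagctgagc
The Cd34 window held GATAA once, at bases 3 to 7 after the start. The Cd48 window held TGTGGT from 76 to 71 bases before the start, and CTTCCG, the ETS letters on the other strand, at bases 6 to 11 after it. The Slamf1 window held GATAA from 129 to 125 bases before the start and CAGCTG at bases 28 to 33 after it. Among 32851 windows of the same length, 16.8% held the RUNX letters, 16.9% the ETS letters, 25.4% the GATA letters and 16.3% the E-box letters. A match to so short a motif describes the letters and not a bound site.

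The remaining members lie apart from these. Ly6a, a GPI-anchored protein of the Ly6 cluster, spans chr15:74994877-74998031 on the minus strand. Procr, the receptor of activated protein C, spans chr2:155751117-155755471 on the plus strand, and Cd93, a C-type lectin-like receptor, chr2:148436640-148443563 on the minus strand. Spn, the sialomucin leukosialin, spans chr7:127132232-127137823 on the minus strand, and Adgrg1, an adhesion G protein-coupled receptor, chr8:94974751-95014217 on the plus strand. Short reads could be exchanged with another gene for part of Ly6a: 19% of its 50-base stretches recur in other transcripts, most of them (15%) in Ly6c1, which was detected in 1 cell. The antisense gene Gm16897 overlaps exons of Cd34 (3.91% of 50-base stretches shared) and was detected in 11 cells, and the counting is not stated to use strand.

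Cd34 and Cd48 were at high levels in nearly all cells. At 10 TPM, Ly6a and Adgrg1 were in most cells, Cd93 in 42, Spn and Procr in a minority, and Slamf1 in 1. Cd48 was at 4.46 TPM in the lowest cell, 900 TPM at the median and 3583 TPM in the highest. Cd34 was at 2.05, 666 and 1917 TPM in the lowest, median and highest cell. Both were detected in 76 of 76 cells (exact 95% interval 95.3 to 100%), which 3.32% of all listed genes were; 2.11% of genes were at 10 TPM or more in every cell, and neither Cd34 nor Cd48 was. Their medians stood high in the table: 0.961% of genes had a median at or above that of Cd48 and 1.54% one at or above that of Cd34. Ordering the genes of each cell from high to low, the median place was 175.5 for Cd48 and 303.5 for Cd34.

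Ly6a was at 0 in the lowest cell, 171 TPM at the median and 2154 TPM in the highest. It was detected in 65 cells (85.5%, interval 75.6 to 92.5%), and 7.35% of genes had a median at or above its own. Adgrg1 was at 0, 110 and 566 TPM and was detected in 64 cells (84.2%, interval 74 to 91.6%); 10.1% of all genes were detected in at least 64 cells, and 10.8% had a median at or above that of Adgrg1. Cd93 was at 0, 14.4 and 196 TPM and was detected in 47 cells (61.8%, interval 49.98 to 72.8%), a count that 17.8% of genes reached. Spn, at 0, 0 and 345 TPM, was detected in 21 cells (27.6%, interval 18 to 39.1%), where 37.2% of genes were in at least 21. Procr, at 0, 0 and 645 TPM, was detected in 13 cells (17.1%, interval 9.43 to 27.5%), where 47.6% of genes were in at least 13. Slamf1 was detected in 2 cells (2.63%, interval 0.320 to 9.18%), and 11.6% of genes were detected in 1 or 2 cells and 18.8% in 0. These intervals cover the counting of cells only.

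Neighbours in this order of levels overlapped. The middle range of Cd48, from its lower to its upper quartile, was 325 to 1777 TPM and that of Cd34 406 to 1169 TPM; Cd48 was the higher of the pair in 46 of 76 cells. The range of Ly6a, 1.93 to 455 TPM, overlapped that of Cd34 and that of Adgrg1 (33.7 to 204 TPM). Within cells, Cd34 was above Ly6a in 62, Ly6a above Adgrg1 in 49 and Adgrg1 above Cd93 in 65.

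**Figure D1:**
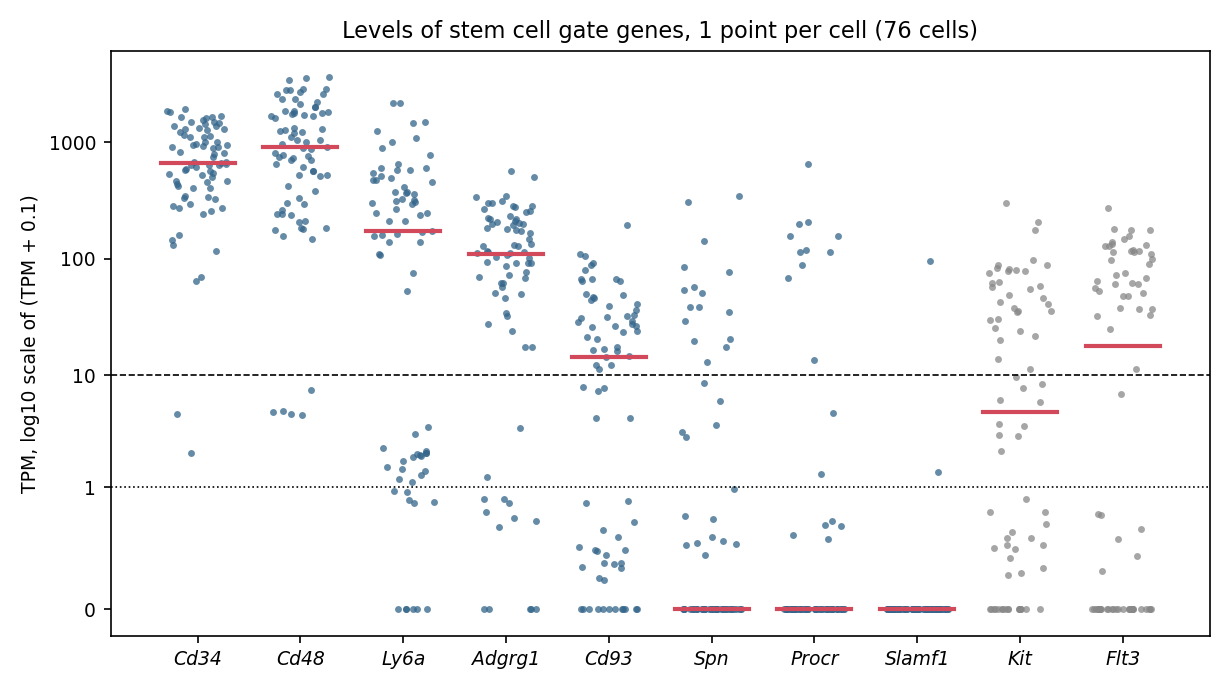
Level of each gate gene, and of Kit and Flt3 in grey, in every cell (1 point per cell, TPM on a log10 scale of TPM + 0.1; red bar, median; dotted line 1 TPM, dashed line 10 TPM). Cd34, Cd48 and Ly6a each show an upper cloud of cells at 52.7 TPM or more and a separate lower one at 7.44 TPM or less, with none between.

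The levels of 4 members fell into 2 separate clouds. No cell had Ly6a between 3.56 and 52.7 TPM: 48 cells lay above this gap, with a median of 362 TPM, and 28 below it, of which 6 were at 0 and 22 had values with a median of 1.66 TPM. For Cd48 the gap ran from 7.44 to 148 TPM, with 71 cells above it and 5 below, at 4.46, 4.63, 4.75, 4.84 and 7.44 TPM. For Cd34 it ran from 4.61 to 64.1 TPM, with 2 cells below it, at 2.05 and 4.61 TPM. For Adgrg1 it ran from 3.48 to 17.3 TPM, with 62 cells above and 14 below. Cd93, Spn and Procr had no such wide gap around 10 TPM. Their nearest values on either side were 7.93 and 11.3 TPM for Cd93, 8.51 and 13 TPM for Spn and 4.71 and 13.6 TPM for Procr. A threshold of 1 TPM therefore cuts through the lower cloud of Ly6a and lies below that of Cd34 and Cd48, and one of 10 TPM falls in the gap. The lower clouds followed the mean level of these 4 genes: the median of values above 0 and under 10 TPM was 4.75 TPM for Cd48 (mean over cells 1167 TPM), 3.33 for Cd34 (796), 1.66 for Ly6a (327) and 0.716 for Adgrg1 (132). The same median was 0.508 TPM for Spn, 0.424 for Procr and 0.233 for Cd93, whose means were 17.9, 24.9 and 25 TPM and did not fall in that order. Whether such low values came from the cell itself was not tested. At 10 TPM, Cd34 was in 74 cells, Cd48 in 71, Adgrg1 in 62, Ly6a in 48, Cd93 in 42, Spn in 16, Procr in 11 and Slamf1 in 1.

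The cells carried these genes in many combinations. At 1 TPM a cell had a median of 5 of the 8 (range 2 to 7), in 22 different combinations, of which 11 occurred in 1 cell each. The most frequent, Cd34, Cd48, Ly6a, Cd93 and Adgrg1 together, was in 17 cells, and the same without Cd93 in 13. At 10 TPM the median was 4 (range 1 to 7), and the order of these 2 combinations turned, with 14 cells without Cd93 and 11 with it, among 28 combinations. The cell with title letter E and number 9 had 7 members at either threshold, all but Slamf1, although it had the fewest genes detected (2465).

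**Figure D2:**
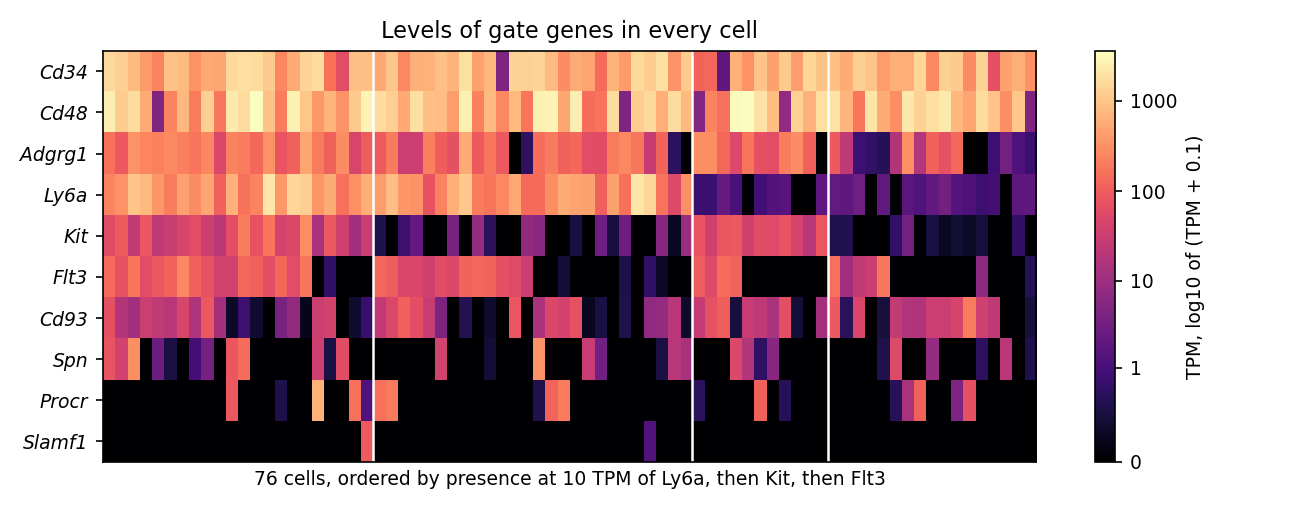
Level of the 8 gate genes, Kit and Flt3 (rows) in each of 76 cells (columns, ordered by presence at 10 TPM of Ly6a, then Kit, then Flt3; colour, TPM on a log10 scale of TPM + 0.1; white lines part cells by Ly6a and Kit). Cd34 and Cd48 are bright across nearly all columns, Procr and Spn are scattered, and Slamf1 stands out in 1 column.

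Both genes of the LSK gate were found together in 37 cells at 1 TPM (48.7% of 76, interval 37 to 60.4%) and in 22 at 10 TPM (28.9%, interval 19.1 to 40.5%). Kit without Ly6a, as in the more committed LK progenitors, was in 6 cells at 1 TPM and 11 at 10 TPM. Ly6a without Kit was in 28 and 26 cells, and neither gene in 5 and 17. Kit itself was detected in 43 cells, 33 of them at 10 TPM. The 2 genes showed little relation in level, with a Spearman correlation (rho) of 0.06 over the 76 cells, which share a cell type label and preparation. This rho was 0.22 in cells with title numbers 2 to 6 and -0.05 in those with 7 to 11. At 10 TPM, Kit was in 22 of 48 cells with Ly6a and in 11 of 28 without.

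**Figure D3:**
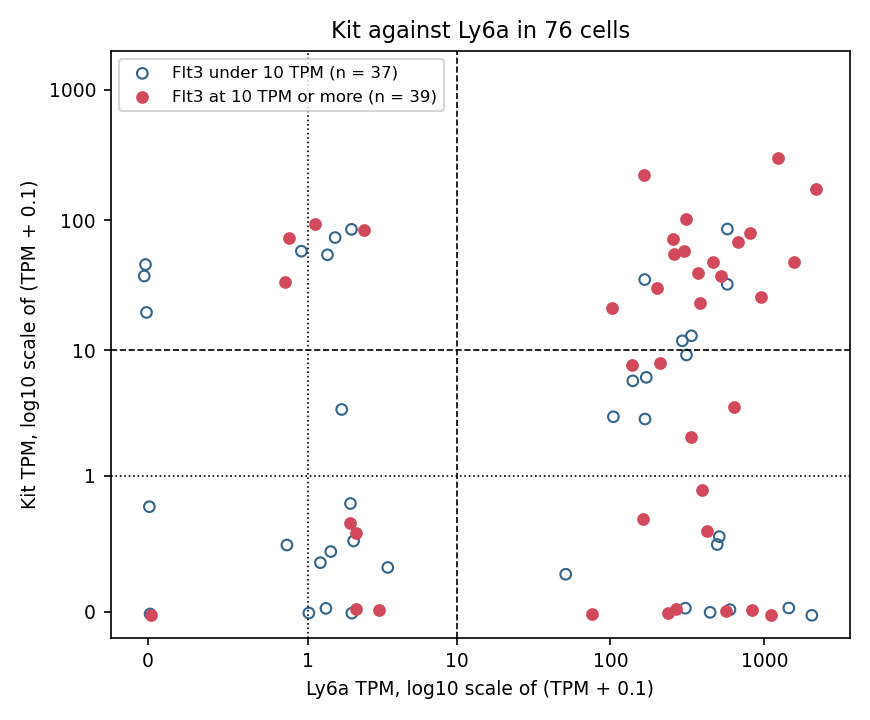
Kit against Ly6a in 76 cells (TPM, both axes on a log10 scale of TPM + 0.1; filled red, Flt3 at 10 TPM or more; open blue, Flt3 below; dotted lines 1 TPM, dashed lines 10 TPM). The upper right field above both dashed lines holds 22 cells, 17 of them with Flt3, and the band of cells at the left of the gap in Ly6a holds 28.

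Within the cells with Kit and Ly6a, the Cd48 and Flt3 pattern of MPP4 was the most frequent over all cells, but at 1 TPM not in those with title numbers 7 to 11. It was in 23 of 37 cells at 1 TPM (62.2%, interval 44.8 to 77.5%) and 16 of 22 at 10 TPM (72.7%, interval 49.8 to 89.3%). The MPP3 pattern, Cd48 without Flt3 or Slamf1, was in 13 of 37 and 4 of 22 cells; at 1 TPM it was in 2 cells with title numbers 2 to 6 (5.41% of 37) and 11 with 7 to 11 (28.2% of 39). The MPP4 pattern was in 15 (40.5%) and 8 (20.5%) of the same cells, so the order of these patterns turned between the title groups. Flt3 was detected in 24 of 37 and 16 of 39 cells. The MPP2 pattern, with Slamf1, was in 1 cell at either threshold, the cell with title letter E and number 3. The remaining cell at 10 TPM, with Kit at 23.8, Ly6a at 366 and Flt3 at 91.0 TPM, had Cd48 at 4.75 TPM.

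By Cd34 and Flt3, 23 of the 37 cells had both and 14 had Cd34 alone, and none lacked Cd34. At 10 TPM the counts were 17 and 5 of 22, and again no cell lacked both Cd34 and Flt3. The pattern of long-term stem cells in that scheme, Cd34-negative and Flt3-negative, was therefore found in 0 of 76 cells. By 3 counts, a share of cells called so of up to 3.95% remains possible. This bound covers the counting of cells and not transcripts that were missed. Among the 22 cells at 10 TPM, Adgrg1 was in 22, Cd27, a receptor found on stem cells and lymphoid-primed progenitors, in 12, and Cd93 in 12. Over all 76 cells at that threshold, Adgrg1 was in 62, Cd27 in 29 and Cd93 in 42. Prtn3, a granule protease of granulocyte-monocyte progenitors, was in 20 of the same 22 cells (90.9%, against 72.4% of all 76). Fcgr3 (CD16) was in 14 (63.6% against 76.3%). Irf8, a regulator of monocytes and dendritic cells, was in 13 (59.1% against 55.3%). Mpo, also of the granulocyte-monocyte list, was in 9 (40.9% against 50%).

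Cells with Kit but without Ly6a had the granulocyte-monocyte pattern of Cd34 with Fcgr3 in 5 of 6 at 1 TPM and 8 of 11 at 10 TPM. The common myeloid pattern, Cd34 without Fcgr3, was in 1 and 2 of these cells, and the megakaryocyte-erythroid pattern without either gene in 0. At 10 TPM, 1 of the 11 cells lacked Cd34 and had Fcgr3. At that threshold Prtn3 was in 4 of the 11 (36.4%, against 72.4% of all 76) and Mpo in 4 (36.4% against 50%). Irf8 was in 7 of them (63.6% against 55.3%). Fcgr3 was frequent everywhere (69 of 76 cells, 58 at 10 TPM), in 33 of the 37 cells with Kit and Ly6a as well. Il7r, the interleukin 7 receptor of lymphoid progenitors, was in 8 cells, 3 at 10 TPM. It stood together with Flt3, Kit and Ly6a in 2 cells at 1 TPM and in 0 at 10 TPM. All 3 cells with Il7r at 10 TPM lay in the low cloud of Ly6a, as did 28 of all 76. They had both Cd93 and Adgrg1, as did 35 of all 76.

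The CD150 gate of stem cells was empty. Slamf1 without Cd48 was in 0 of 76 cells at 1 TPM and at 10 TPM. A share of cells called so of up to 3.95% remains possible by 3 counts, and 4.74% is the upper bound of the exact interval. Both bounds cover the counting of cells and not Slamf1 transcripts that were missed. Slamf1 was at 96.0 TPM in the cell with letter E and number 3, at 1.38 TPM in the cell with letter E and number 2, and at 0 in the other 74. Both cells were high in Cd48, at 2841 and 1616 TPM, and in Ly6a, at 602 and 1463 TPM. The first had Kit at 30.6 TPM, Adgrg1 at 101 TPM and Flt3 at 0, and the second had Kit at 0. The titles of the pair differ by 1 in number, and whether the low value in one is related to the high value in the other was not tested. The gate of EPCR, CD150 and CD45 without CD48 was likewise empty, and Slamf1 and Procr met in 1 cell, with Procr at 1.32 TPM.

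Absence of both Slamf1 and Cd48, the pattern of a further multipotent progenitor gate, depended on the threshold, with 0 cells at 1 TPM and 5 at 10 TPM (6.58%, interval 2.17 to 14.7%). Those 5 are the cells in the lower cloud of Cd48. Their Cd34 ranged from 117 to 1135 TPM, Kit was at 0, 2.98, 23.8, 77.8 and 78.1 TPM, and Ly6a was above its gap in 2 of them.

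**Figure D4:**
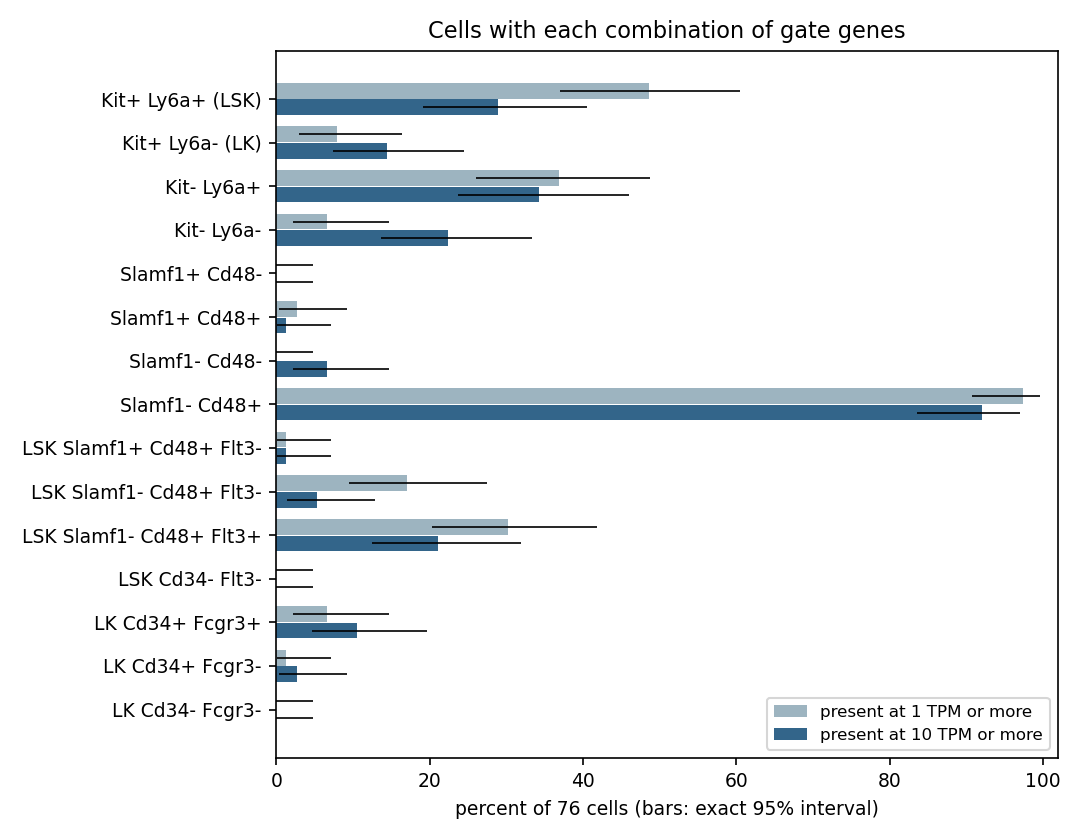
Share of the 76 cells with each combination of gate genes (percent; light bars, presence at 1 TPM or more; dark bars, at 10 TPM or more; lines, exact 95% interval, which covers the counting of cells). Cd48 without Slamf1 takes 97.4% and 92.1% of cells, and Slamf1 without Cd48, LSK without Cd34 and Flt3, and LK without Cd34 and Fcgr3 are at 0.

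Of the 8 genes, the pairs Cd34 with Cd48 and Ly6a with Adgrg1 had the highest correlations. Over 28 pairs, rho ran from -0.13 to 0.42 with a median of 0.06, and 24 pairs lay between -0.2 and 0.2. For Cd34 and Cd48 rho was 0.42 (Pearson r of log2(TPM + 1) 0.35), 0.44 in title numbers 2 to 6 and 0.37 in 7 to 11, and 0.39 when the 2 cells with the most extreme Cd34 were left out. Without the 7 cells that had either gene under 10 TPM it was 0.33. For Ly6a and Adgrg1 rho was 0.32 (r 0.39), with 0.34 and 0.28 in the title groups and 0.38 without those 7 cells. The order of the pairs thus turned with Pearson correlation and without the 7 cells. At 10 TPM Adgrg1 was in 44 of 48 cells with Ly6a and in 18 of 28 without. Cells share the cell type label, the preparation and a column scaled to a fixed sum, so these values describe the 76 cells and carry no p. With the number of genes detected, the 8 genes had rho of -0.15 to 0.07. With the summed TPM of ribosomal-protein genes, rho was -0.40 for Cd34 and -0.25 for Cd48 against -0.14 to 0.02 for the other 6; the part of that sum in their shared variation was not tested.

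The 7 cells with Cd48 or Cd34 in the lower cloud also stood apart in genes outside the gates. Lmo2, a bridging protein of blood transcription complexes, was under 10 TPM in 7 of 7 (0 to 1.64 TPM) and at 10 TPM or more in 46 of the other 69 cells. The lectin Clec10a was likewise at 10 TPM or more in 0 of 7 and 48 of 69. Fcgr3 was at 10 TPM or more in 7 of 7 (135 to 2624 TPM) and in 51 of 69. Ptprc and Adgrg1 were each at 10 TPM in 6 of the 7. The low cells were therefore not low in all surface genes. Lmo2, Clec10a and Fcgr3 were singled out here with their values known.

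**Figure D5:**
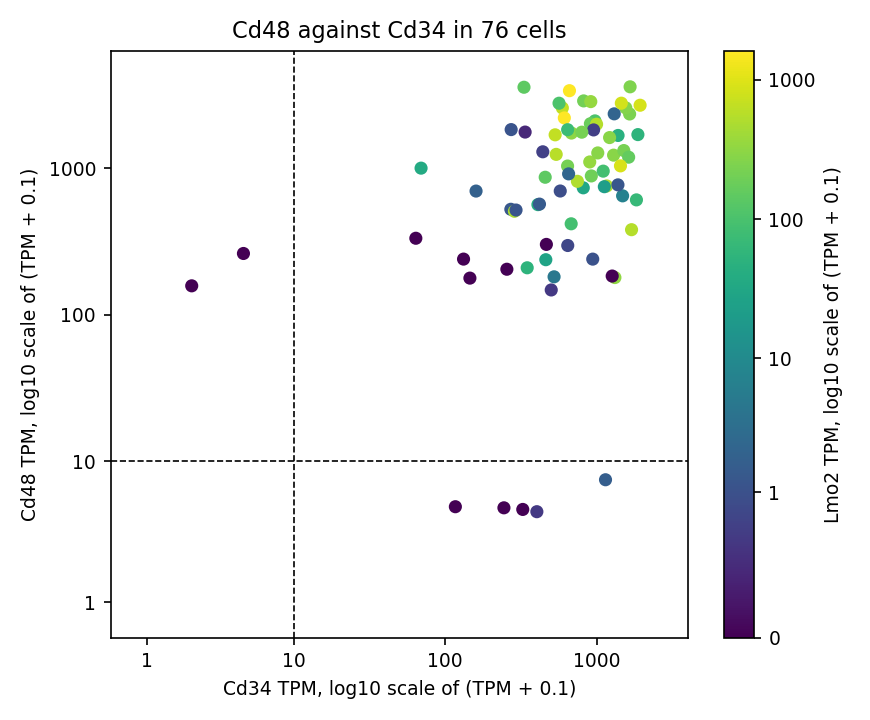
Cd48 against Cd34 in 76 cells (TPM, both axes on a log10 scale of TPM + 0.1; colour, Lmo2 TPM on the same scale; dashed lines 10 TPM). The 2 cells left of the vertical line and the 5 below the horizontal one are dark, with Lmo2 at 1.64 TPM or less.

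The genes whose levels were most like Cd34 over the 76 cells were Igfbp7, a secreted binding protein (rho 0.56), the tetraspanin Cd81 (0.53), Lmo2 (0.53), Ubl3 (0.53) and Clec10a (0.52). For Cd48 they were Clec10a (0.65) and Lmo2 (0.62), followed by the beta-globin entries Beta-s (0.60), Hbb-b2 (0.59) and Hbb-b1 (0.59). The globin entries are near-identical copies between which reads can be exchanged and count as 1 signal. Without the 7 low cells rho with Cd48 was 0.58 for Clec10a, 0.53 for Lmo2 and 0.47 to 0.49 for the globin entries. Among 5808 genes, 6 (0.103%) reached a rho of 0.5 with Cd34 and 7 (0.121%) with Cd48. Lmo2 and Clec10a stood among the 5 closest genes of both.

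Of the other members, Cd93 had 1 gene at a rho over 0.5, and the rest had none. Over 5809 genes in at least 20 cells, the highest rho to another gene had a median of 0.445 (quartiles 0.419 and 0.483), and it was 0.5 or more for 18.7% of genes. The highest for Cd93 was 0.52, with Jmjd1c. It was 0.42 for Adgrg1, with Il16, a value near the lower quartile; Vat1 (0.42), Kit (0.40), Krcc1 (0.40) and Mndal (0.40) came next. It was 0.40 for Procr, with Upp1, 0.39 for Ly6a, with Wfdc17, and 0.38 for Spn, with Atp2a2, all below the lower quartile. The rest of the 5 closest to Ly6a were Map2k3 (0.37), Tspan32 (0.36), Lmo2 (0.35) and Nsmce2 (0.35).

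Ly6a and Adgrg1 each went with a growth factor receptor. Ly6a had rho of 0.34 with Flt3 (0.29 and 0.35 in the title groups), and at 10 TPM Flt3 was in 30 of 48 cells with Ly6a and 9 of 28 without. Adgrg1 had rho of 0.40 with Kit (r 0.42; 0.53 and 0.28 in the title groups), and at 10 TPM Adgrg1 was in 32 of 33 cells with Kit and 30 of 43 without. Flt3 and Kit each had rho of 0.27 with the number of genes detected. All 10 cells with Itga2b (CD41), an integrin of early blood progenitors and megakaryocytes, had Adgrg1 and Cd93. At 10 TPM, 9 of 9 did. Over all 76 cells, Adgrg1 was in 64, and Adgrg1 with Cd93 in 40 at 1 TPM and 35 at 10 TPM. Many other pairs of genes were counted as well. Kit, Pecam1 (CD31) and Adgrg1, a combination used to sort stem cells of the embryo, were together in 16 cells at 1 TPM and 12 at 10 TPM.

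Procr marked a small and scattered set. In its 13 cells it was at 1.32, 4.71, 13.6, 69, 88.7, 114, 114, 118, 156, 158, 200, 207 and 645 TPM. Of these cells 4 had title numbers 2 to 6 (of 37) and 9 had 7 to 11 (of 39). Flt3 was in 3 of the 13 and in 37 of the 63 cells without Procr; at 10 TPM it was in 3 of 11 and 36 of 65. Flt3 itself was in fewer cells with title numbers 7 to 11, so the 2 counts share that split. Cd93 was in 10 of 13 cells with Procr and 37 of 63 without, and Adgrg1 was in 12 of the 13. Ly6a was above 1 TPM in 12, but above its gap in 7 of the 11 cells at 10 TPM. Kit was in 6 of the 13, and 5 had Kit and Ly6a both. Ptprc was in 8 of the 13 and in 58 of the 63 cells without Procr. At 10 TPM it was in 7 of 11 and 53 of 65.

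Spn was in 15 cells together with Kit at 1 TPM, out of 21 with Spn, and in 9 of 16 at 10 TPM. Ptprc was in 20 of the 21. The embryonic gate that adds Cdh5 (VE-cadherin) to Spn, Kit and Ptprc was not analysed here. Cd93 was with Kit in 26 cells and with Ly6a in 40 at 1 TPM, and in 20 and 23 at 10 TPM.

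Relatives and partners of the members were unevenly present. In the SLAM family, the Cd48 receptor Cd244a was in 27 cells, Cd84 in 16 and Ly9 in 14, while Slamf6 and Cd2 were in 0. In the Ly6 family, Ly6e was in 76 cells (median 919 TPM), Ly6d in 24, Ly6c2 in 2 and Ly6c1 in 1; Ly6i and Ly6k were in 0. Among sialomucins and selectins, Selplg (the P-selectin ligand, median 334 TPM) was in 76 cells and Cd164 in 66, and Podxl, a close relative of Cd34, was in 0. F2r, the thrombin receptor through which the protein C receptor signals, was in 61 cells, far more than Procr, while Clec14a and Mmrn2, a relative and a ligand of Cd93, were in 0. Of other adhesion receptors, Adgrg3 was in 61 cells, Adgre1 (F4/80) in 60 and Adgrg5 in 22, and Adgrl2 was in 0.

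Genes known from stem cells were present in part. A cell had a median of 5 of 18 listed genes of that list (range 1 to 9): Lyl1 was in 67 cells, Lmo2 in 58, Fli1 in 53 and Mycn in 52, and Mecom, Vwf and Pdzk1ip1 were among those in 0. Among the 22 cells with Kit and Ly6a at 10 TPM, Gata2 was in 9, Meis1 in 8 and Hlf in 2, and across all 76 cells in 34, 17 and 7. Granulocyte-monocyte genes had a median of 5 of 12 per cell. Further partners used in stem cell gates were Cd9 in 74 cells, Fcgr2b in 45, Cd27 in 33, Itga6 in 24, Pecam1 in 24, Esam in 4 and Thy1 in 1, with Tek in 0.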

How the data were processed

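For 76 single sorted iHPCs, per the labels' protocols, cDNA was made and amplified by Discover-sc WTA Kit V2 and libraries by TruePrep DNA Library Prep Kit V2. The authors deposited 1 table of TPM, with 15192 genes and 1 column per cell. The build mm10 and the tools StringTie 1.3.4, HISAT2 2.1.0, SAMtools 0.1.19 and bcl2fastq are listed in the submitters' processing notes; neither the annotation nor a gene filter is given in the sources used here. TPM keeps no depth, so the precision of single values is unknown. Cells count as 1 sample, and no test was made.

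Genes were matched by symbol, 11 of 159 list genes through an older symbol; 138 were listed. Detection was at 1 TPM, with 10 TPM as an alternative. Shares carry exact Clopper-Pearson 95% intervals. Correlations are Spearman rho of log2(TPM + 1); the 5 genes of highest rho, among genes detected in at least 20 cells, were found for each member in at least 10 cells, a procedure tested on simulated data. Named by rule were the 8 members, their gate partners, these closest genes (for Procr, Spn and Cd93 the first), and in each list up to 4 genes found in most cells and those in 0. The members and lists were chosen with earlier results of these data known, and the motifs with the sequences in view. Some genes taken by this rule were left out of the text. Named outside the rule, with values seen, were Polr2a, Tbp, Gata2, Meis1, Hlf, Irf8, Cd3d, Gm16897 and Ly6c1. Gene spans came from GENCODE and start-site windows from RefSeq, both of GRCm38; 6 of 8 members matched a window.

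Other settings were any value above 0, 5 TPM, cells with at least 3500 genes, title numbers 2 to 6 or 7 to 11 (titles have the form of plate positions, which the labels do not state), rescaling without ribosomal-protein genes, Pearson correlation, regression on genes detected and a pseudocount of 0.1. Added after seeing the data were a threshold at 1% of each gene's highest value and the removal of 7 cells. Python 3.11.15, pandas 2.3.3, numpy 2.4.6 and scipy 1.17.1 were used.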

Additional observations from a re-analysis of the deposited data

How the results depend on the processing

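Shares were taken to have moved when they left the 95% interval of the value reported, and correlations when they changed by more than 0.1. Of 72 alternative values for the shares of the 8 members, 10 moved. Cd48 moved from 100% of cells to 94.7% at 5 TPM and 93.4% at 10 TPM or at 1% of the highest value, Ly6a from 85.5% to 63.2% at these 3 thresholds, and Slamf1 from 2.63% to 0% in title numbers 7 to 11. With any value above 0 counted, Cd93 was in 84.2%, Spn in 39.5% and Adgrg1 in 93.4% of cells. Kit with Ly6a moved from 48.7% to 71.1% when any value above 0 counted, to 35.5% with 5 TPM, to 28.9% with 10 TPM and to 36.8% with 1% of the highest value. Absence of both Slamf1 and Cd48 moved from 0% to 5.26% at 5 TPM and 6.58% at 10 TPM or at 1% of the highest value. The MPP3 pattern moved from 17.1% to 9.21% at 5 TPM or at 1% of the highest value, 5.26% at 10 TPM, 5.41% in title numbers 2 to 6 and 28.2% in 7 to 11, and the MPP4 pattern from 30.3% to 44.7% at any value above 0. Thresholds act here by their construction, since Ly6a, Cd48 and Kit have cells with values between them; for the title groups the cause was not tested. For 21 other gates, 30 of 189 alternative values moved, 10 up and 20 down. Of 56 alternative correlations, over 7 pairs of members or of a member with Kit or Flt3, 5 moved: 4 were with Kit in the title groups, and Procr with Cd93 fell from 0.24 to 0.13 in cells with at least 3500 genes. The other pairs were not put through this comparison. None of 21 alternative highest correlations moved. The 8 alternative medians, from rescaling without ribosomal-protein genes, all stayed within the standard deviation of the gene over cells. That limit is wide, so little can be drawn from it. Of the 5 genes closest to Procr and to Spn, 0 were kept when values under 10 TPM were set to 0. The 1% threshold and the setting without the 7 cells low in Cd48 or Cd34 were chosen after seeing the data. No paired analysis was possible because all cells form 1 group. Unknown depth limits what a value of 0 can show.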
